A study of Mus musculus with 48 samples.

Results

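The thrombospondin genes *Thbs1*, *Thbs2*, *Thbs3* and *Thbs4* were followed in colon RNA of mice with and without the clock gene *Bmal1* in the intestinal epithelium. These 4 genes were picked by symbol from the 55401 genes of the count table. All 4 passed the filter on low counts that left 15073 genes for testing. *Thbs4* was selected for its genotype difference in these same data, so its genotype difference is given below as a description without a test. The other 3 genes came in by family name. The fifth member of the family, *Comp*, was looked at beside them.

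The table held 48 male C57BL/6J mice of 18 to 20 weeks, 4 per genotype at each of 6 circadian times (CT1, CT5, CT9, CT13, CT17 and CT21). The mice lived alone with a running wheel and were killed on the second day of constant darkness. Every mouse carried floxed *Bmal1* on both chromosomes (Bmal1fl/fl). The Bmal1IEC-/- mice also carried Villin-Cre, a recombinase under a promoter active in intestinal epithelial cells, whereas their control littermates (Villin wt/wt) had none. The RNA came from total colon tissue, in which muscle, connective tissue, nerves and blood vessels were sequenced together with the epithelium. In such bulk RNA, fewer cells of a type and less RNA per cell cannot be told apart.

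Thrombospondins are secreted, calcium-binding glycoproteins of the extracellular matrix that bind cell-surface receptors and other matrix proteins. *Thbs1* and *Thbs2* encode trimers with thrombospondin type 1 repeats, which bind CD36 and restrain blood vessel growth, and *Thbs1* also activates latent TGF-beta. *Thbs3*, *Thbs4* and *Comp* encode pentamers that lack these repeats. *Thbs4* is known from tendon, muscle and injured tissue, where it organises collagen and, inside the cell, helps the stress sensor Atf6 reach the Golgi. *Bmal1* encodes the transcription factor that, with its partner Clock, binds E-boxes and drives circadian transcription.

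The counts summed to 3144997 in the shallowest and 4785844 in the deepest library. The normalised counts given below are counts divided by a size factor per mouse. Mice of the same genotype and time differed by more than counting error, with a chi-square per gene of 1.93 to 14.9 over 72 pairs. The Bmal1IEC-/- replicates SV384 and SV385 at CT1 were left out of the 46 mice that the study's own normalised values rest on, and all tests below use those 46 mice unless 48 are named. The library SV385 stood apart in its tissue makeup, with a summed smooth muscle marker level of 848 CPM, that is counts scaled to the same library total, against 3424 to 6153 in the 46 mice. *Arntl*, the symbol of *Bmal1*, ran between 15.9 and 286 normalised counts in control mice and between 85.8 and 182 in Bmal1IEC-/- mice, with means of 132 ± 97.7 (SD, n = 24) and 128 ± 23.2 (n = 22). The near means hide a crossing over the day. At CT9 and CT13 *Arntl* averaged 26.4 and 30.2 in control and 114 and 117 in Bmal1IEC-/- mice. At CT1 and CT21 it averaged 260 and 252 in control and 177 and 139 in Bmal1IEC-/- mice. Counts per gene also take in reads of undeleted exons and of cells without Cre, and their part in these values was not tested. *Nr1d1*, a clock repressor driven by Bmal1, averaged 221 ± 216 normalised counts in control and 81.6 ± 84.2 in Bmal1IEC-/- mice.

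*Thbs1* was the most abundant of the family, and the remaining 3 genes lay close together in control colon. Per kilobase of merged exons, *Thbs1* had 18.1 ± 6.65 CPM (SD, n = 24 control mice), *Thbs4* 5.94 ± 1.85, *Thbs3* 5.38 ± 0.673 and *Thbs2* 4.41 ± 1.298. *Thbs1* exceeded each of the others within all 24 control mice. *Thbs4*, *Thbs3* and *Thbs2* were neighbours whose ranges of level per length overlapped between mice, and their order was not tested. Within the same mouse, *Thbs4* lay above *Thbs3* in 11 of 24 controls and above *Thbs2* in 17 of 24. *Thbs3* lay above *Thbs2* in 19 of 24. *Comp*, which encodes cartilage oligomeric matrix protein, had 0 to 5 counts per mouse and fell to the filter on low counts. Since a library with 0 counts of a gene could still hold 3, *Comp* was near the floor of detection in both genotypes. Among the genes tested, the mean level of *Thbs4* per length in controls was at percentile 53.1 and that of *Thbs1* at percentile 81.4.

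In Bmal1IEC-/- colon, *Thbs4* became the lowest of the 4. Its level per length was 1.45 ± 0.427 CPM per kilobase (n = 24, all 48 mice used), below *Thbs1* at 14.1 ± 3.30, *Thbs3* at 4.54 ± 1.44 and *Thbs2* at 3.72 ± 1.06. *Thbs4* lay under *Thbs2* and under *Thbs3* within all 22 Bmal1IEC-/- mice of the tests. With all 24 mice, *Thbs4* exceeded *Thbs2* in 1 mouse and *Thbs3* in 1 mouse. The share of *Thbs4* in the summed level of the 4 genes was 18.3% ± 6.72 in control (n = 24) and 6.01% ± 1.75 in Bmal1IEC-/- mice (n = 22). That of *Thbs1* was 52.2% ± 9.97 and 58.0% ± 6.08 in the same mice. Shares of 1 sum depend on each other, and the larger share of *Thbs1* was no rise of its level, which was 18.1 CPM per kilobase in control mice.

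**Figure D1:**
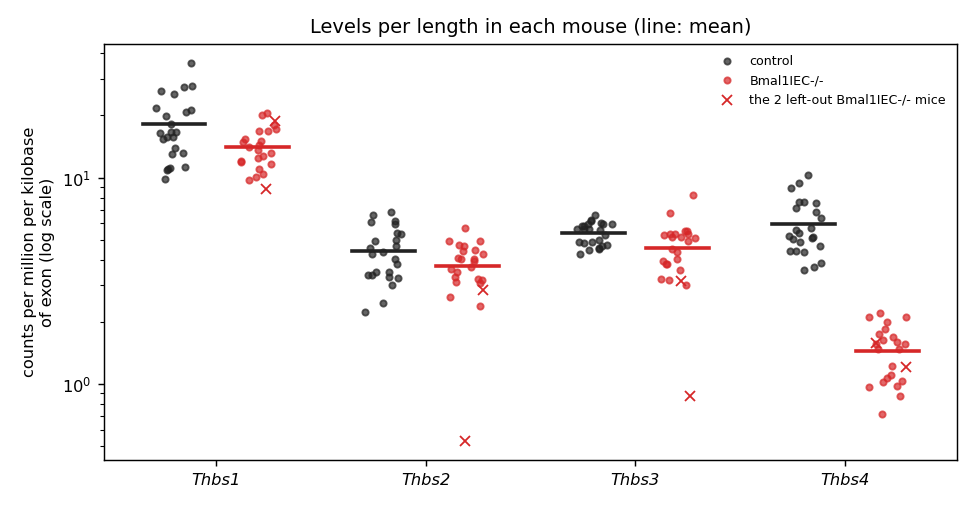
CPM per kilobase of exon (log axis) of the 4 thrombospondin genes in each control (black) and Bmal1IEC-/- (red) mouse, with the mean over all mice of a genotype as a line and replicates SV384 and SV385 as crosses. *Thbs4* drops from the middle of the family at 5.94 to its lowest place at 1.45, and the lowest cross under *Thbs2* is SV385.

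*Thbs4* (ENSMUSG00000021702, chr13:92751590-92794818 in GRCm38, minus strand) was lower in every Bmal1IEC-/- mouse than in every control mouse. Control mice had between 44.5 and 131 normalised counts with a median of 66.5 and a mean of 75.4 ± 24.1 (SD, n = 24). Bmal1IEC-/- mice had between 9.25 and 27.4 with a median of 19.2 and a mean of 18.4 ± 5.50 (n = 22). The fitted log2 fold change was -2.06 with an SE of 0.10. Such a complete separation downwards was found for 3 of 15073 genes (0.0199%), which is the contrast *Thbs4* was chosen from. The other genes, named here after their values were seen, were *Sis*, the sucrase-isomaltase of the brush border, and *Cyp4b1*, a cytochrome P450. The left-out replicates SV384 and SV385 had 21.1 and 17.5 normalised counts of *Thbs4*, inside the range of the other Bmal1IEC-/- mice.

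The values at each time of day follow; their separation is given by that over all mice and adds nothing to it. At CT1, the control mice had 47.1, 53.8, 55.7 and 64.9 normalised counts of *Thbs4* and the Bmal1IEC-/- mice 9.25 and 12.7. At CT5, the values were 44.5, 48.4, 55.0 and 61.3 in control and 13.1, 13.6, 20.6 and 21.6 in Bmal1IEC-/- mice. The control means of these morning times were the lowest of the day, and each of these controls still lay clear of the highest Bmal1IEC-/- mouse. At CT9, control mice had 64.9, 65.1, 89.3 and 94.4 and Bmal1IEC-/- mice 12.01, 19.4, 22.1 and 24.8. At CT13, control mice had 63.6, 88.1, 114 and 124 and Bmal1IEC-/- mice 13.2, 19.4, 20.2 and 23.0. Control values spread most widely at CT13 and CT17, the times of the highest means. At CT17, control mice had 73.9, 80.8, 97.9 and 131 and Bmal1IEC-/- mice 19.0, 26.6, 26.9 and 27.4. At CT21, control mice had 58.2, 67.9, 71.1 and 95.1 and Bmal1IEC-/- mice 11.1, 14.1, 15.4 and 18.7. The ratio of the group means, control over Bmal1IEC-/-, was 5.05, 3.04, 4.01, 5.14, 3.84 and 4.93 from CT1 to CT21. The share of all genes with every Bmal1IEC-/- mouse under every control at a given time was 14.1% at CT1 with its 2 Bmal1IEC-/- mice, 1.86% at CT5, 2.17% at CT9, 6.3% at CT13, 2.68% at CT17 and 2.36% at CT21.

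**Figure D2:**
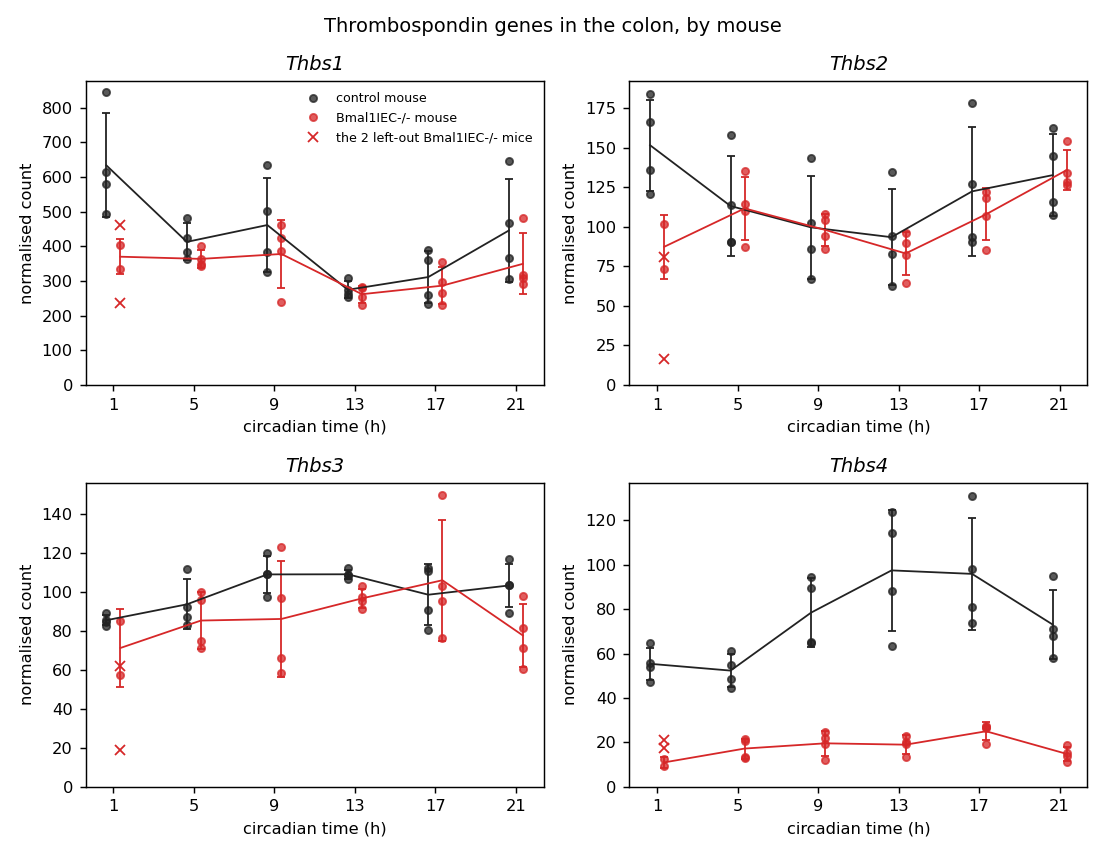
Normalised counts of the 4 genes against circadian time (h) in control (black) and Bmal1IEC-/- (red) mice, with group means ± SD over the 46 mice joined by lines and replicates SV384 and SV385 as crosses. The genotypes are apart at each time for *Thbs4*, from 44.5 upwards in controls and up to 27.4 in Bmal1IEC-/- mice, and overlap for *Thbs1*, *Thbs2* and *Thbs3* at most times.

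The counts behind these values were small. The lowest *Thbs4* count was 44 in control mice, with an exact 95% Poisson interval of 31.97 to 59.1, and the highest in Bmal1IEC-/- mice was 29, with an interval of 19.4 to 41.6. These intervals cover counting error only. No other gene shared exon bases with *Thbs4* or *Thbs2*. For *Thbs3*, 318 of 4823 exon bases (6.59%) overlapped the opposite-strand gene *Mtx1*, a mitochondrial import gene, and *Thbs1* shared 208 bases with the antisense transcript *Gm29233*, which had a mean of 0 counts. Whether the counting used the strand is not given in the sources used here.

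The 250 bases before the transcription start of *Thbs4*, *Thbs2* and *Thbs3* are shown because *Bmal1* encodes an E-box factor and *Thbs4* can be set beside its relatives in this way. They are from RefSeq on GRCm38.p6, 5′ to 3′ on the strand of each gene, with matches to the GC box GGGCGG or the motif TATAAA on either strand in capitals. *Thbs1* and *Comp* had no entry. The windows are chr13:92794819-92795068 for *Thbs4*, chr17:14694263-14694512 for *Thbs2* and chr3:89214930-89215179 for *Thbs3*.
Thbs4: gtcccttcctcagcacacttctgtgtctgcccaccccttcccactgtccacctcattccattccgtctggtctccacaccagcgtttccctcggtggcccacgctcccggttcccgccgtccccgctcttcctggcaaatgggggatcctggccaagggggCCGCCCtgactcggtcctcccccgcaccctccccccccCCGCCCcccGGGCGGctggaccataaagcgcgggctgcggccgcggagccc
Thbs2: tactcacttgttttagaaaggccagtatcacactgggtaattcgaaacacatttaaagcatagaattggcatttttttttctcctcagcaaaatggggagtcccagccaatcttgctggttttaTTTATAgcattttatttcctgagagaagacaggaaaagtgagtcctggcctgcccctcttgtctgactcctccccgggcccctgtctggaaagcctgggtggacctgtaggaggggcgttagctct
Thbs3: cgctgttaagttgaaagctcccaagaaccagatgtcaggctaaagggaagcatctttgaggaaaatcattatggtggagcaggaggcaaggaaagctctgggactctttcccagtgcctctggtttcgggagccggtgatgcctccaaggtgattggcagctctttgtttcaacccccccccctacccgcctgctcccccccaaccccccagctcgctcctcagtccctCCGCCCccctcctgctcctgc

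The window of *Thbs4* held 3 GC boxes and 70.8% G and C, that of *Thbs3* 1 GC box and 58.8%, and that of *Thbs2* no GC box, 1 TATAAA and 46.8%. GC boxes were present in 32.7% of the 32851 promoter windows of this length and TATAAA in 12.4%. The canonical E-box CACGTG was in none of the 3 windows and in 6.02% of all. The D-box (TTATGTAA or TTACGTAA, 0.931% of windows) and the Rev-erb and Ror element (0.177%) were also not among the letters of these 3 windows. The looser E-box CANNTG, of which CACGTG is a special case, had 1 match in each window and was in 66.2% of all.

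*Thbs1* was slightly lower in Bmal1IEC-/- colon, and *Thbs2* and *Thbs3* did not pass the test. *Thbs1* (ENSMUSG00000040152, chr2:118111876-118127133, plus strand) ranged from 235 to 846 normalised counts with a median of 384 in control mice and from 230 to 481 with a median of 327 in Bmal1IEC-/- mice. The genotypes overlapped widely, and the highest controls were at CT1. The log2 fold change of *Thbs1* was -0.28 with an SE of 0.09 (edgeR's quasi-likelihood F test, adjusted p = 0.0315 over all genes). An adjusted p under 0.05 in this direction was given to 5.72% of all genes (4.83% in the opposite one), and 1.39% also passed a fold change of 1.5, 0.71% lower and 0.677% higher in Bmal1IEC-/- mice. *Thbs1* did not reach the fold threshold. Its adjusted p rose to 0.0665 without a term for time and to 0.151 without CT1, with a log2 fold change of -0.20. Without CT5, CT9, CT13 or CT21 it was 0.0655, 0.0514, 0.0523 or 0.0615, and only without CT17 did it stay under 0.05, at 0.042. Leaving out control replicate SV415 gave an adjusted p of 0.0615, SV398 0.0518 and SV476 0.0587. Leaving out Bmal1IEC-/- replicate SV479 gave 0.0668, SV480 0.0777, SV400 0.0516 and SV445 0.0502.

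*Thbs2* (ENSMUSG00000023885, chr17:14665500-14694235, minus strand) ranged from 62.5 to 184 normalised counts with a median of 115 in control and from 64.6 to 154 with a median of 105 in Bmal1IEC-/- mice. Its log2 fold change was -0.16 with an SE of 0.09 (adjusted p = 0.317). *Thbs3* (ENSMUSG00000028047, chr3:89215180-89226837, plus strand) ranged from 80.5 to 120 with a median of 104 in control and from 57.2 to 150 with a median of 93.2 in Bmal1IEC-/- mice. The log2 fold change of *Thbs3* was -0.20 with an SE of 0.07 (adjusted p = 0.0789). Without all mice of CT17 it was -0.26 (adjusted p = 0.0221), and without control replicate SV453, Bmal1IEC-/- replicate SV402 or replicate SV416 the adjusted p was 0.0461, 0.0355 or 0.0145. The point estimates of these 3 genes thus lay between -0.28 and -0.16, far closer to 0 than that of *Thbs4*.

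The largest differences of *Thbs1* and *Thbs2* were at CT1. There, control mice had 494, 580, 615 and 846 normalised counts of *Thbs1* and the Bmal1IEC-/- mice 335 and 405, a log2 fold change of -0.79 with an SE of 0.25 (adjusted p = 0.0947). Controls at CT1 had 121 to 184 normalised counts of *Thbs2* and the Bmal1IEC-/- mice 73.0 and 102, a log2 fold change of -0.81 with an SE of 0.27 (adjusted p = 0.114). These groups did not overlap, as was so for 14.1% of all genes in this direction at CT1 with its 2 Bmal1IEC-/- mice, and neither gene passed the test. At the other 5 times the log2 fold change was between -0.35 and -0.07 for *Thbs1* and between -0.20 and 0.03 for *Thbs2*. The left-out mice bear on CT1. Replicate SV384 had 463 normalised counts of *Thbs1* and SV385 had 237, both below the lowest control. For *Thbs3*, the log2 fold change was furthest from 0 at CT21 with -0.41 (SE 0.18, adjusted p = 0.503) and at CT9 with -0.34 (SE 0.17, adjusted p = 0.502). At CT13, controls had 107 to 112 and Bmal1IEC-/- mice 91.2 to 103 normalised counts of *Thbs3*, without overlap, as had 6.3% of all genes in this direction, and the log2 fold change was -0.17 (SE 0.17, adjusted p = 0.665).

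**Figure D3:**
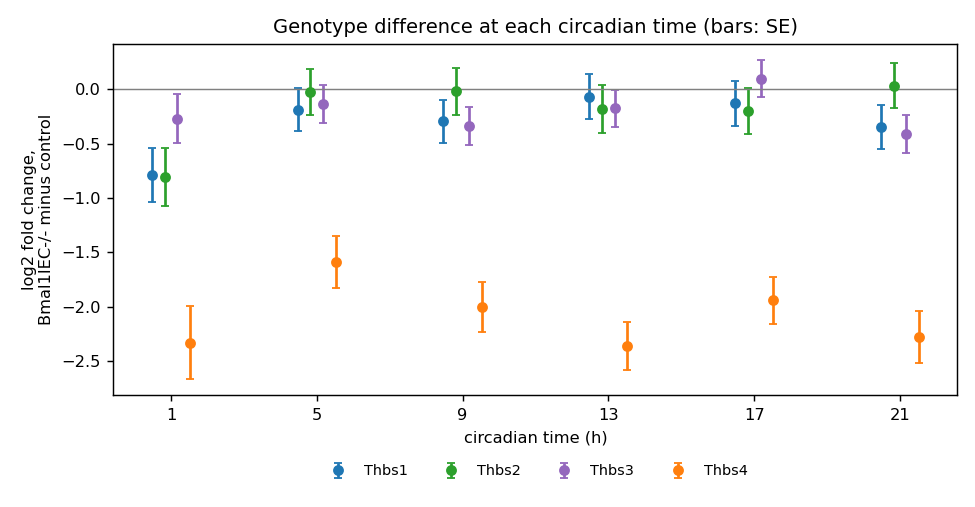
Log2 fold change, Bmal1IEC-/- minus control, at each circadian time (h) for the 4 genes, with bars for the SE of the fit over 46 mice. *Thbs4* lies between -2.36 and -1.59 throughout, and the other genes lie between -0.81 and 0.10.

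Markers of the non-epithelial tissue were also a little lower in Bmal1IEC-/- mice. All 10 smooth muscle markers had negative log2 fold changes with a median of -0.18, and 3 passed an adjusted p of 0.05 (edgeR, as before). Over all genes, 7554 of 15062 with a symbol were negative and 5.72% passed in this direction. Their summed level was 3958 to 6153 CPM with a median of 5125 in control and 3424 to 5703 with a median of 4479 in Bmal1IEC-/- mice. All 8 fibroblast markers were negative with a median of -0.14, 2 of them passing, and their sums were 1072 to 1823 CPM in control and 986 to 1894 in Bmal1IEC-/- mice. The 3 markers of interstitial cells of Cajal, the pacemaker cells of the gut, had a median of -0.16 with 1 passing and sums of 239 to 429 against 246 to 406 CPM. The 9 markers of enteric neurons and glia had a median of -0.18 with 2 passing and sums of 75.2 to 111 against 63.5 to 98.8 CPM. The 7 endothelial markers had a median of -0.16 with 2 passing and sums of 166 to 239 against 155 to 221 CPM. These medians were near the log2 fold changes of *Thbs2* and *Thbs3* and smaller in size than that of *Thbs1*, and the median over all genes was -0.00. The part of the tissue makeup in the differences of these 3 genes was not tested.

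Of the platelet markers 2 of 5 could be tested and did not pass, with *Gp9* and *Gp1bb* at a median of 0 and sums of 6.51 to 15.9 against 7.79 to 15.6 CPM. The 5 macrophage markers did not pass (median -0.08, sums of 122 to 175 against 93.3 to 193 CPM), nor did the 4 mesothelial markers (median -0.44, sums of 0 to 29.5 against 1.82 to 21.9 CPM) or the 2 of 6 skeletal muscle markers that could be tested (median 0.01, sums of 8.98 to 33.5 against 8.73 to 27.5 CPM, *Myh4* at a median of 0). Among the 7 epithelial markers, 2 were higher (*Cdh1* and *Cdx2*) and 1 lower (*Epcam*) by adjusted p, beside 4.83% and 5.72% of all genes, with sums of 4595 to 6371 against 5081 to 6620 CPM.

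The left-out library SV385 had 848 CPM of smooth muscle markers, 393 CPM of fibroblast markers and, at 7984 CPM, the highest epithelial sum of all. Its normalised counts of *Thbs2* and *Thbs3* were 16.4 and 18.7, the lowest of the 48 mice. Its 237 normalised counts of *Thbs1* and 17.5 of *Thbs4* lay inside the ranges of the other Bmal1IEC-/- mice. These are the values of 1 library. In control mice, Spearman's rho with the smooth muscle sum was 0.53 for *Thbs1*, 0.34 for *Thbs2*, 0.04 for *Thbs3* and -0.15 for *Thbs4* (n = 24 mice, which share circadian time and depth). With the epithelial sum it was -0.38, -0.59, 0.39 and 0.25. In the 22 Bmal1IEC-/- mice the values, in the same order of genes, were 0.40, 0.44, 0.09 and 0.04 with the smooth muscle sum. With the epithelial sum they were 0.27, -0.09, 0.45 and -0.03 there. *Thbs4* had -0.51 in control and 0.22 in Bmal1IEC-/- mice with the sum for interstitial cells of Cajal. With that for enteric neurons and glia it had 0.18 and 0.55. The cell type that holds each gene was not tested.

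In control colon, *Thbs4* and *Thbs1* were rhythmic over 24 h and peaked at opposite times of the day. JTK_cycle, a rank test against cosine-shaped orders with an exact null distribution, gave *Thbs4* a p of 0.000198 over the 12 phases and an adjusted p of 0.00326 over all genes, with its peak at CT16. The fitted cosine of *Thbs4* peaked at 14.8 h (SE 0.753) with an amplitude of 24.8 normalised counts (SE 4.88), or 32.8% of its mean. Group means rose from 52.3 ± 7.40 (SD, n = 4) at CT5 to 97.5 ± 27.2 at CT13 and 95.9 ± 25.4 at CT17. *Thbs1* had a p of 0.0015 and an adjusted p of 0.0143, with its peak at CT2. Its cosine peaked at 1.95 h (SE 0.973) with an amplitude of 138 normalised counts (SE 35.2), or 32.6% of its mean. Group means of *Thbs1* were 634 ± 150 at CT1 and 275 ± 24.6 at CT13. *Thbs4* was thus highest at the time when *Thbs1* was lowest, and their Spearman's rho over the 24 control mice was -0.51.

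Both calls belong to a tissue in which many genes were rhythmic. JTK_cycle called 15.5% of 32471 genes with at least 1 count in control mice, and 32.4% of the genes of the genotype test, against 2 of these 4. *Thbs2* had a p of 0.0213 and an adjusted p of 0.107, and *Thbs3* a p of 0.0681 and an adjusted p of 0.264. Their cosines had amplitudes of 26.3 (SE 8.75) and 9.64 (SE 3.15) normalised counts, or 22.2% and 9.65% of the mean. By edgeR's test of a cosine and sine, which called 50.7% of 14221 genes, *Thbs4* (adjusted p = 7.34e-05), *Thbs1* (0.000685) and *Thbs2* (0.0231) passed and *Thbs3* (0.0554) did not. Leaving out each control mouse in turn kept the adjusted JTK_cycle p of *Thbs4* between 0.00207 and 0.0099 and that of *Thbs1* between 0.00636 and 0.0427.

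In Bmal1IEC-/- mice, none of the 4 genes passed the rhythm test after adjustment over all genes. There, 4.3% of all genes and 9.1% of the genes of the genotype test were called by JTK_cycle. *Thbs4* had a p of 0.0798 and an adjusted p of 0.464, *Thbs1* 0.0466 and 0.329, *Thbs2* 0.067 and 0.415, and *Thbs3* 0.543 and 1. At an unadjusted p under 0.05, *Thbs1* alone was counted. The edgeR cosine test, with 23.1% of genes called, also called none, with adjusted p values of 0.12 for *Thbs4*, 0.0507 for *Thbs1*, 0.0777 for *Thbs2* and 0.23 for *Thbs3*. The cosine of *Thbs4* had an amplitude of 4.39 normalised counts (SE 1.54), 24.4% of its lower mean, and peaked at 13.8 h (SE 1.22). The cosine of *Thbs1* had an amplitude of 55.3 (SE 19.9), 16.4% of its mean, and peaked at 3.23 h (SE 1.32). Since neither gene was called rhythmic there, these peak times are descriptions, and their distance from those in control mice was not tested by itself.

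A change of the rhythm between the genotypes was not shown for any of the 4 genes. The interaction of genotype with the 24-h cosine and sine, on the log scale and therefore relative to each genotype's mean, had an adjusted p of 0.864 for *Thbs4*, 0.712 for *Thbs1*, 0.971 for *Thbs2* and 0.945 for *Thbs3* (edgeR). In the same test, 0.935% of 15073 genes passed. At an unadjusted p under 0.05, with 1551 of the 15073 genes, there were also none of the 4, the smallest being 0.186 for *Thbs1*. DESeq2, which called 205 of the 15073 genes, called none of the 4. The interaction of genotype with day (CT1, CT5 and CT9) or night (CT13, CT17 and CT21) was called in 0.0531% of genes. Its log2 value, the genotype difference at night minus that by day, was -0.30 with an SE of 0.24 for *Thbs4* (adjusted p = 0.748), 0.24 with an SE of 0.20 for *Thbs1* (0.771), 0.15 with an SE of 0.21 for *Thbs2* (0.879) and 0.07 with an SE of 0.16 for *Thbs3* (0.94). These tests do not show that the rhythms were alike, since the relative amplitude of *Thbs4* in Bmal1IEC-/- mice rests on 9 to 29 counts per mouse.

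Of 13 tested genes for receptors and partners of thrombospondins, which include the receptors *Cd36* and *Cd47* and the integrin chains, 0 were higher and 3 lower by adjusted p in Bmal1IEC-/- mice, 0 of them beyond a fold change of 1.5, with a median log2 fold change of -0.05 beside -0.00 over all genes. An adjusted p under 0.05 was given to 10.5% of all genes, and 5.72% of all genes had it in the lower direction. The genes that fell were *Cacna2d1*, the calcium channel subunit that binds thrombospondins (log2 fold change -0.20, SE 0.05, adjusted p = 0.00892), *Itga6*, a laminin-binding integrin chain (-0.14, SE 0.04, adjusted p = 0.0251), and *Itgb3*, the partner of the alpha V chain (-0.22, SE 0.07, adjusted p = 0.0389), the last named after its values were seen. *Cd47* was at 0.00 with an SE of 0.04 and *Cd36* at -0.25 with an SE of 0.18 (adjusted p = 0.967 and 0.412), both named after their values were seen because they are the best known receptors.

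In the TGF-beta group, which holds ligands, latency proteins, receptors and targets, 5 of 14 genes fell and 0 rose, with a median of -0.18, where 5.72% of all genes fell by adjusted p. *Tgfbi*, a matrix protein induced by TGF-beta (log2 fold change -0.22, adjusted p = 0.00144), and the ligand *Tgfb3* (-0.29, adjusted p = 0.0156) had the smallest p values. The remaining genes, *Ccn2* (-0.40), *Ltbp3* (-0.23) and *Tgfbr3* (-0.23), were named after their values were seen. The latent ligand *Tgfb1*, which the type 1 repeats of thrombospondin 1 act on, was at -0.11 with an SE of 0.08 (adjusted p = 0.469).

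Other matricellular proteins, secreted proteins that signal from the matrix without building it, had no member beyond a fold change of 1.5. Of 15 genes 12 were tested, 5 fell (5.72% of all genes did) and 0 rose, all 12 had negative values and the median was -0.20. *Ccn3* (log2 fold change -0.37, adjusted p = 0.00305) and *Sparcl1* (-0.19, adjusted p = 0.0066) led, followed by *Smoc2* (-0.20), *Sparc* (-0.20) and *Smoc1* (-0.37), the last 3 named after their values were seen. Among other proteins with type 1 repeats, 23 of 25 genes were tested, 3 fell (again beside 5.72%) and 0 rose, with a median of -0.16. These were the secreted proteases *Adamts1* (-0.40, adjusted p = 0.00562) and *Adamts17* (-0.45, adjusted p = 0.00823) and the Wnt enhancer *Rspo3* (-0.40, adjusted p = 0.0462), the last named after its values were seen. These 3 lists, like the stromal marker lists beside them, had medians between -0.20 and -0.14, and the part of the tissue makeup in this was not tested.

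The Atf6 group covers the intracellular role of thrombospondin 4. Of 11 genes, *Herpud1*, a factor of protein disposal at the endoplasmic reticulum, fell (log2 fold change -0.27, adjusted p = 3.74e-05) and 0 rose, with a median of 0.06. Of all genes, 5.72% fell by adjusted p, and 8 of these 11 had positive values. *Xbp1*, next by p value, was at 0.06 (adjusted p = 0.253) and *Atf6* itself at -0.06 with an SE of 0.04 (adjusted p = 0.428, named after its value was seen).

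**Figure D4:**
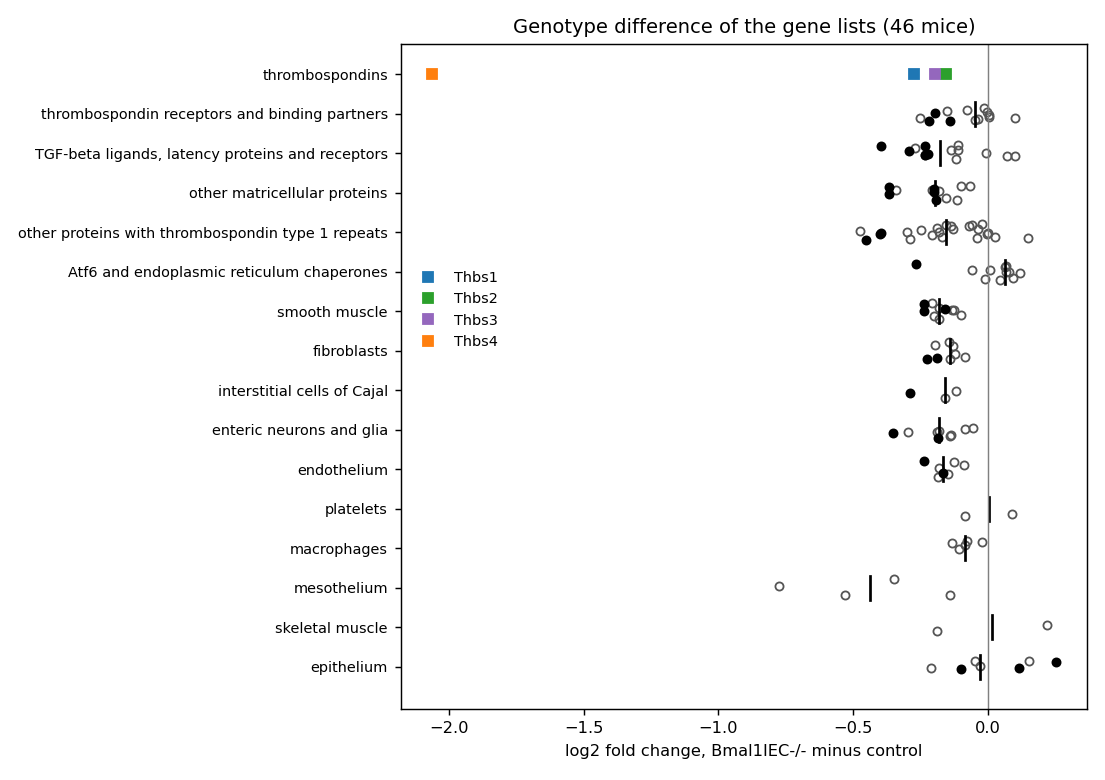
Log2 fold change, Bmal1IEC-/- minus control, of each tested gene of the gene lists and marker lists (filled circles, adjusted p under 0.05 by edgeR; open circles, not passing; short lines, medians), with the 4 thrombospondin genes as coloured squares on top. *Thbs4* at -2.06 is far left of the genes of every list, of which the lowest is a mesothelial marker at -0.77, and the other thrombospondins sit among the matrix and stromal genes.

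The genes that followed *Thbs4* most closely over the 24 control mice were *Fuk*, the fucose kinase (Spearman's rho 0.83 on log2 CPM), *Dpep1*, a membrane dipeptidase (0.83), *Slc9a3r1*, a scaffold of apical transporters (0.83), *Cpt1c*, a carnitine palmitoyltransferase (0.83), and *Kcnk5*, a potassium channel (0.83). All 5 had their JTK_cycle peak at CT14 in control mice. The most opposite genes were *Stmn1*, a microtubule regulator (-0.84), *Hao2*, a peroxisomal oxidase (-0.84), and *Actl6a*, a chromatin remodelling subunit (-0.83), with peaks at CT4, CT2 and CT2, of which that of *Actl6a* was not called rhythmic (adjusted p = 0.141). These points share circadian time and sequencing depth, and the values are descriptions. Over the 22 Bmal1IEC-/- mice the same genes had rho values of 0.43, 0.17, 0.47, 0.36 and -0.13 and of -0.46, -0.34 and -0.64. Since the genes were picked as the extremes in control mice, weaker values in other mice follow from the choice and show no effect of genotype. Between the genotypes, *Slc9a3r1* had a log2 fold change of -0.47 (adjusted p = 4.3e-07) and *Dpep1* of -0.15 (adjusted p = 0.03), *Hao2* rose by 0.59 (adjusted p = 4.28e-06), and the other 5 did not pass.

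*Thbs1* was most like *Ptger4*, a prostaglandin E2 receptor (rho 0.87), and *Parp11*, an ADP-ribosyltransferase (0.84), both with peaks at CT2. *Thbs2* was most like the scaffold *Akap12* (0.79) and *Flna*, the actin crosslinker filamin A (0.77), and *Thbs3* like the channel subunit *Kcne4* (0.81) and the transcription factor *Tshz1* (0.79). None of these 6 genes passed the genotype test, with adjusted p values of 0.111 to 0.928. Within the family, the rho of *Thbs3* and *Thbs4* was 0.49 in control and 0.63 in Bmal1IEC-/- mice, and that of *Thbs1* and *Thbs4* -0.51 and 0.02.

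No tested gene around *Thbs4* showed a fall of its size. Of 17 genes starting within 500 kb of the start of *Thbs4*, 7 were tested. An adjusted p under 0.05 in edgeR was given to 10.5% of all genes and to 0 of these 7, too few to set apart from that share. Their log2 fold changes were between -0.07 for *Msh3*, a mismatch repair gene, and 0.19 for *Fam151b*, with the smallest adjusted p, 0.113, for *Serinc5*, a membrane protein gene at 0.09 with an SE of 0.04. The nearest tested gene, *Mtx3*, a mitochondrial import gene 49.9 kb away, had 161 ± 42.8 normalised counts in control and 159 ± 35.04 in Bmal1IEC-/- mice and a log2 fold change of 0.03. *Zfyve16*, an endosomal adaptor, was at 0.04 and *Tent2*, a poly(A) polymerase, at 0.02.

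**Figure D5:**
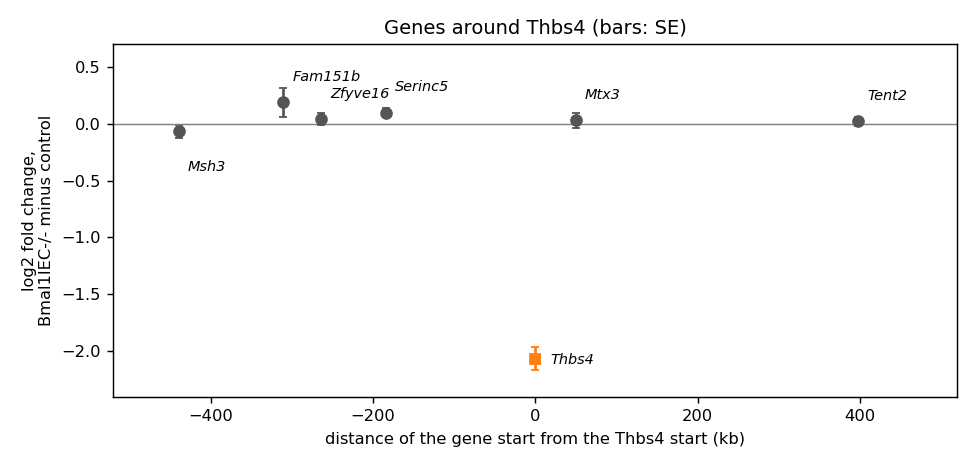
Log2 fold change, Bmal1IEC-/- minus control, of 6 tested genes within 500 kb of *Thbs4* against the distance of their start from its start (kb), with bars for the SE over 46 mice. The 6 neighbours lie between -0.07 and 0.19 and *Thbs4*, the square at distance 0, at -2.06.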

How the data were processed

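The authors made stranded mRNA libraries from the colon of 48 mice. Per the study's methods and the submitters' processing notes, reads were checked with FastQC 0.11.5, trimmed with Trimmomatic 0.39, aligned to mm10 with STAR 2.7.5c, sorted with SAMtools 1.3.1 and counted on exons with featureCounts 1.4.6 at a mapping quality of at least 4, without reads on several features. The deposited values are read counts per gene, not normalised. The annotation release and the strand setting are not given in the sources used here. The authors' normalised values were matched by size factors computed without Bmal1IEC-/- replicates SV384 and SV385, which leaves 46 mice, to a relative difference of 5.18e-06 over 200 genes (0.00124 for the next pair), and the study's columns of its own comparisons were not used.

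Symbols came from GENCODE vM21 (55141 of 55401 identifiers matched), with *Ctgf*, *Cyr61*, *Nov*, *Wisp1* and *Wisp2* under their current *Ccn* symbols. Genes passing filterByExpr over the 12 groups were tested with edgeR 4.0.16 (TMM, quasi-likelihood F test, R 4.3.3) on genotype plus circadian time, with Benjamini-Hochberg adjustment over all 15073 genes and a call needed an adjusted p under 0.05 with a fold change over 1.5. The tests of change of rhythm and of genotype by period were fitted the same way. Normalised counts were counts over DESeq2 1.42.0 size factors. JTK_cycle was reimplemented with its exact null for a 24-h period and 12 phases at 2-h steps and run on genes with at least 1 count. CPM are counts scaled to a common library total. Other steps ran in Python 3.11.15 with scipy 1.17.1, pandas 2.3.3, numpy 2.4.6 and, for plots, matplotlib 3.10.9. The edgeR tests of the genotype difference and of the change of rhythm, and JTK_cycle, were also run on simulated data, and the other tests were not.

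The 4 genes and the gene lists were chosen with earlier results of these data known. Named in the text were the family members, *Arntl* and *Nr1d1*, in each list the genes past both thresholds or otherwise the 2 with the smallest p, the genes most like each member by Spearman's rho (5 highest and 3 lowest for *Thbs4*, 2 highest for the others) and the tested genes starting within 500 kb of *Thbs4*, of which 1 is not reported here. The alternatives were DESeq2, another normalization, no filter, all 48 mice, no time term, another model of time, another transcript length and leaving out each mouse or time. Mice are separate animals, no batch is given, and replicate numbers are unique to a mouse. Litters are not given in the labels, so no pairing could be modelled.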

Additional observations from a re-analysis of the deposited data

Results flagged for a closer look

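In the 48 groups of 4 values formed by the 4 thrombospondin genes, both genotypes and 6 times, 2 mice lay far from the rest of their group by Dixon's test, which flags about 1 in 20 groups by chance. The first was Bmal1IEC-/- replicate SV471 at CT21, with 481 normalised counts of *Thbs1* against 292 to 318 in the other mice of its group. The second was Bmal1IEC-/- replicate SV481 at CT17, with 19.0 normalised counts of *Thbs4* against 26.6 to 27.4, and it is also below the lowest control of that time.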

How the results depend on the processing

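The genotype difference of *Thbs4* stayed between -2.15 and -1.98 on the log2 scale under DESeq2, another normalization, no filter, all 48 mice, no time term and without each circadian time, and between -2.10 and -2.03 without each mouse. *Thbs2* was on the same side of an adjusted p of 0.05 in the genotype test under all these settings. *Thbs1* lost its adjusted p under 0.05 without a time term, without CT1, CT5, CT9, CT13 or CT21 (adjusted p of 0.0514 to 0.151, with fewer mice) and without each of 7 mice, and *Thbs3* gained it without CT17 and without each of 3 mice. The rhythm of *Thbs2* in control mice passed by edgeR (adjusted p = 0.0231) and by JTK_cycle without control replicate SV396 (0.0483), and the rhythm calls of *Thbs1*, *Thbs3* and *Thbs4* did not change under any alternative run. No change of rhythm and no interaction with period was called for the 4 genes under any alternative.

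Counts over all genes moved more. Without the filter on low counts, 319 of 32471 genes were called for genotype, in place of 209 of 15073. A change of rhythm was called for 141 genes, for 281 with all 48 mice and for 76 with the 6 times as a factor. The interaction with period was called for 8 genes, for 14 by DESeq2 and for 20 with all 48 mice. The edgeR test called 3380 of 14645 genes rhythmic in Bmal1IEC-/- mice, where JTK_cycle called 1396 of a wider set of 32471. The causes were not tested. Leaving out each mouse gave 201 to 236 genes for genotype, 109 to 166 for the change of rhythm, 7 to 16 for the interaction with period, and 4245 to 5047 rhythmic genes in control and 824 to 1915 in Bmal1IEC-/- mice. The interaction gave 16 without control replicate SV469 and 14 without SV434, and the rhythm count in Bmal1IEC-/- mice was 838 without SV399, 824 without SV437 and 856 without SV445. Per kilobase of the longest transcript, *Thbs3* had 6.43 CPM in control mice in place of 5.38, and *Thbs4* had 6.11. With 9 to 29 counts of *Thbs4* per Bmal1IEC-/- mouse, counting error limits what can be seen of its course over the day there.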
